A study of Mus musculus with 24 samples.

Results

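The genes described here are 39 transcripts of the lysosome, namely its hydrolases, membrane proteins, proton pump and a pair of transcription factors, chosen by symbol from a fixed list and by no threshold on measured values. The list was chosen with earlier results of these data known, so it is not independent of them. All 39 matched 1 Ensembl gene each among the 49585 gene identifiers of the deposited tables, and all 39 passed the filter on low counts in every comparison. They were followed in 24 RNA-seq libraries of whole white adipose tissue from male C57BL/6J mice, in 6 groups. One experiment compared diets in subcutaneous adipose tissue (SAT) after 20 weeks, with 4 high-fat libraries (60% of the energy as fat) and 4 low-fat libraries (10%). The other compared genotypes: SAT came from Azin2-/- mice (n = 3) and wild-type littermates (n = 5), and epigonadal adipose tissue (GAT) from Azin2-/- mice (n = 4) and wild-type littermates (n = 4). Every mouse of the genotype experiment ate the 60% fat diet for 8 weeks, so no low-fat group stands beside these libraries. The labels do not say that the libraries of a group came from separate animals, so p-values measure the spread between these libraries only.

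The lysosome is the acidic compartment in which cells digest proteins, glycans and lipids taken up from outside or delivered by autophagy. The vacuolar ATPase (V-ATPase) pumps protons into it, hydrolases reach it mostly by way of the mannose 6-phosphate receptors, and its membrane proteins protect the boundary and export the products. Transcription factors of the MiT/TFE family, among them Mitf and Tfeb, drive many lysosomal genes through E-box-like motifs in their promoters. In obese fat, macrophages that gather around dying adipocytes take up released lipid and digest it in their lysosomes, while adipocytes use the same organelle for autophagy.

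Total counts ranged from 31.96 to 46.62 megareads per library. Azin2, the targeted gene, which encodes an antizyme inhibitor of polyamine metabolism, was read at 11.8, 8.32 and 11.1 normalised CPM (read counts scaled to library size) in Azin2-/- SAT, against 16.2, 25.1, 16.9, 25.2 and 18.04 CPM in wild-type SAT (log2 fold change -0.97, edgeR adjusted p = 0.244). In GAT it was read at 19.0, 12.5, 14.6 and 12.9 CPM in Azin2-/- and 25.4, 22.4, 24.8 and 24.9 CPM in wild-type libraries (-0.74, edgeR adjusted p = 0.0408), and in both depots the genotypes did not overlap. The highest Azin2-/- value, 19.0 CPM, was that of GAT Azin2-/- replicate 1. The library labelled SAT low-fat replicate 1 stood apart: 6 epididymis markers summed to 19560 CPM, 3 markers of subcutaneous fat to 3.46 CPM (66.9 to 85.6 CPM in low-fat replicates 3, 5 and 6) and 8 adipocyte markers to 8010 CPM (18810 to 36900 CPM in the other 23 libraries). GAT wild-type replicate 3 held 3514 CPM of the epididymis markers. The sum of 10 skeletal muscle markers reached 69510 CPM in replicate 2 of Azin2-/- SAT, 56380 CPM in replicate 3 of wild-type SAT and 19260 CPM in low-fat replicate 5. Diet values are therefore given without low-fat replicate 1 as well as with all 8 libraries, and genes of other lists that were called only without it are named as such.

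Promoter windows of RefSeq (GRCm38.p6, 250 bases before to 50 bases after an annotated start) were at hand for 31 of the 39 genes, in 38 windows. The hexamer CACGTG, the core of the E-box bound by MiT/TFE factors, which reads the same on both strands, was found in 12 of these 31 genes. It lay in 31.6% of the 38 windows, against 7.15% of all 32851 windows. The longer GTCACGTG, which contains that hexamer and was searched on both strands, lay in 9 genes (Ctsa, Ctsd, Lgmn, Gla, Glb1, Naglu, Lamp1, Mcoln1 and Atp6v0d1). It lay in 23.7% of the 38 windows, against 2.25% of all windows. The hexamer flanked by GT and AC, a palindrome of 10 bases, lay in 0 of the 38 windows and in 0.326% of all. The motif TCATGTGA, searched on both strands, lay in 4 genes (Ctss, Tpp1, Gla and Ppt1), in 10.5% of the 38 windows and in 0.986% of all. The stretches below, printed 5′ to 3′ on the gene's strand with CACGTG in capitals, are shown because they carry 1 to 4 copies of the hexamer and belong to genes whose values are set against each other in the following paragraphs.
Lamp1, plus strand, chr8:13159089-13159156: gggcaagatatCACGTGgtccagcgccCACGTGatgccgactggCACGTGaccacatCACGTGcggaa
Mcoln1, plus strand, chr8:3500431-3500490: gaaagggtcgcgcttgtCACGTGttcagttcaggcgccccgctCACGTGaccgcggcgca
Gla, minus strand, chrX:134601182-134601241: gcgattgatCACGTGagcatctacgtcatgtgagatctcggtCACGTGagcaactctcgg
Ctsd, minus strand, chr7:142387893-142387952: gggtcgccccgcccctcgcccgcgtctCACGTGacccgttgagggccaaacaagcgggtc
Lgmn, minus strand, chr12:102439112-102439171: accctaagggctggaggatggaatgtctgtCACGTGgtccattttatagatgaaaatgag
Atp6v0d1, minus strand, chr8:105566044-105566103: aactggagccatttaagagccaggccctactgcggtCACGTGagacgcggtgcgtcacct
The RefSeq starts behind the Ctsd, Gla, Lgmn and Mcoln1 windows lie inside the gene as the Ensembl annotation bounds it. The Ctsd and Lgmn stretches lie inside it whole and the Mcoln1 stretch in part, and the Atp6v0d1 stretch runs to 20 bases after the start. These matches are a description of letters in the windows, and binding was not measured.

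Compared per length, the 39 transcripts covered a wide range in wild-type SAT. Psap, the precursor of the saposins that activate sphingolipid hydrolases, was the most abundant at 2510 ± 343 TPM (read counts per exonic length, scaled to a fixed total; SD, n = 5) and made up 28.96% of the summed TPM of the 39. It was followed by the cysteine protease cathepsin B (Ctsb, 1167 ± 133 TPM), the membrane glycoprotein Lamp1 (823 ± 60.4 TPM) and the aspartic protease cathepsin D (Ctsd, 680 ± 19.0 TPM). The bottom of the order was formed by Atp6v0d2 (11.8 ± 6.89 TPM), Gla (10.7 ± 2.66 TPM) and Mitf (10.2 ± 1.05 TPM), which did not differ beyond their spread.

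The first comparison asked what the long high-fat diet changes in SAT. Lysosomal transcripts were higher on the high-fat diet across proteases, glycosidases, sphingolipid and cholesterol handling proteins and pump subunits, and none of the 39 was called lower. Over all 8 libraries, 19 of 39 were called higher (edgeR quasi-likelihood test, adjusted p under 0.05 over all genes tested), where 10.8% of the 17066 genes tested were called higher, 10.4% lower and 21.2% in either direction. The groups did not overlap for 22 of the 39, all higher, where 16.9% of all genes were apart in that direction. Without low-fat replicate 1, 33 of 39 were called higher, where 23.5% of 17268 genes were called higher, 23.5% lower and 47% in either direction. The median log2 fold change of the 39 was 0.51 with all 8 libraries and 0.48 without low-fat replicate 1, against -0.09 and -0.02 for all genes tested. In the fit that includes low-fat replicate 1, the count was 12 without high-fat replicate 3 and 11 without high-fat replicate 4. There 10.7% and 10.3% of all genes were called. The levels of the high-fat and low-fat libraries did not overlap for 33 of 39 genes without low-fat replicate 1, all higher, where 25.4% of all genes were apart in that direction.

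Among the 10 proteases, all 10 were called higher without low-fat replicate 1, and 8 with it. Ctss, cathepsin S, which trims the invariant chain of MHC class II in antigen-presenting cells, held 256, 280, 248 and 197 CPM in the 4 high-fat libraries. Low-fat replicates 1, 3, 5 and 6 held 42.6, 19.8, 30.0 and 37.5 CPM of it, so every high-fat library lay several-fold above every low-fat one. Its log2 fold change was 3.07 ± 0.25 (SE, adjusted p = 0.000149) without low-fat replicate 1 and 2.89 ± 0.26 (adjusted p = 0.000868) with it. Lgmn, the asparaginyl endopeptidase legumain that cleaves and activates cathepsins, held 224, 275, 239 and 210 CPM on the high-fat diet and 83.5, 47.2, 58.2 and 67.2 CPM on the low-fat diet. Low-fat replicate 1 was the highest low-fat library for both genes, yet lay below every high-fat one. The log2 fold change of Lgmn was 2.04 ± 0.14 (adjusted p = 3.63e-05) without that library. Ctsl, cathepsin L, held 967, 1117, 959 and 950 CPM on the high-fat diet and 508, 436, 394 and 581 CPM on the low-fat diet, and Ctsd held 864, 934, 888 and 875 CPM against 443, 387, 361 and 544 CPM. Both were higher by about the same factor, with log2 fold changes of 1.08 ± 0.14 and 1.04 ± 0.14 without low-fat replicate 1.

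Ctsh, the aminopeptidase cathepsin H, showed how much low-fat replicate 1 weighs. It held 92.8, 84.0, 74.1 and 71.8 CPM on the high-fat diet, against 28.1, 41.7 and 40.5 CPM in low-fat replicates 3, 5 and 6, while low-fat replicate 1 alone held 112 CPM. The log2 fold change of Ctsh was 1.13 ± 0.16 (adjusted p = 0.000993) without that library and 0.51 ± 0.42 (adjusted p = 0.406) with it. The other proteases rose less without low-fat replicate 1, from 0.37 for the serine carboxypeptidase Ctsa and the tripeptidyl peptidase Tpp1 to 0.76 for the carboxypeptidase Ctsz on the log2 scale, with the dipeptidyl peptidase Ctsc (0.44) and Ctsb (0.57) between them.

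Of the 11 glycosidases and sulfatases, 10 were called higher without low-fat replicate 1 and 6 with it. Gla, alpha-galactosidase A, which cleaves globotriaosylceramide, held 20.9, 25.2, 23.03 and 19.1 CPM on the high-fat diet and 14.1, 8.49, 8.31 and 9.24 CPM on the low-fat diet, where replicate 1 was again the highest. Its log2 fold change was 1.34 ± 0.10 (adjusted p = 4.52e-05) without that library, and 1.11 ± 0.20 (adjusted p = 0.00926) with it. The sulfatase Galns (1.06), the beta-glucuronidase Gusb (0.92), the alpha-mannosidase Man2b1 (0.89) and Hexa, the alpha subunit of beta-hexosaminidase (0.83), followed on the log2 scale. Glb1, Arsb, Manba, Neu1 and Naglu rose by 0.37 to 0.62 without low-fat replicate 1, and of these only Arsb was called with all 8 libraries. Low-fat replicate 1 held 3898 read counts of Neu1 and 2986 of Glb1, against 1702 to 2375 and 1867 to 2287 in the high-fat libraries. Gaa, the acid alpha-glucosidase that digests glycogen, was the exception at -0.07 ± 0.09 (adjusted p = 0.58), with 133 to 153 CPM on the high-fat diet and 129 to 164 CPM on the low-fat diet.

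Among the 6 genes of lipid digestion and export, Psap held 3032, 3426, 3333 and 2890 CPM on the high-fat diet and 1130, 1616, 1745 and 1915 CPM on the low-fat diet, with a log2 fold change of 0.85 ± 0.09 (adjusted p = 0.000169) without low-fat replicate 1. The cholesterol exporters Npc1 (0.46) and Npc2 (0.47) and the acid ceramidase Asah1 (0.38) were also called higher there. Npc2 and Asah1 were not called with all 8 libraries. Low-fat replicate 1 held 54708 read counts of Npc2, against 26303 to 32519 in the high-fat libraries. The acid sphingomyelinase Smpd1 (0.08 ± 0.06) and the palmitoyl-protein thioesterase Ppt1 (-0.06 ± 0.07) did not pass the test. Lamp1 held 797, 796, 803 and 771 CPM on the high-fat diet, against 592, 602 and 603 CPM in low-fat replicates 3, 5 and 6 and 775 CPM in low-fat replicate 1. It was called at 0.40 ± 0.06 (adjusted p = 0.00064) without low-fat replicate 1 and not with it (0.28 ± 0.14, adjusted p = 0.19). Lamp2 (0.39) and Scarb2, the receptor that carries beta-glucocerebrosidase to the lysosome (0.45), were called alike, whereas the calcium channel Mcoln1 (0.05 ± 0.06) was not.

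**Figure D1:**
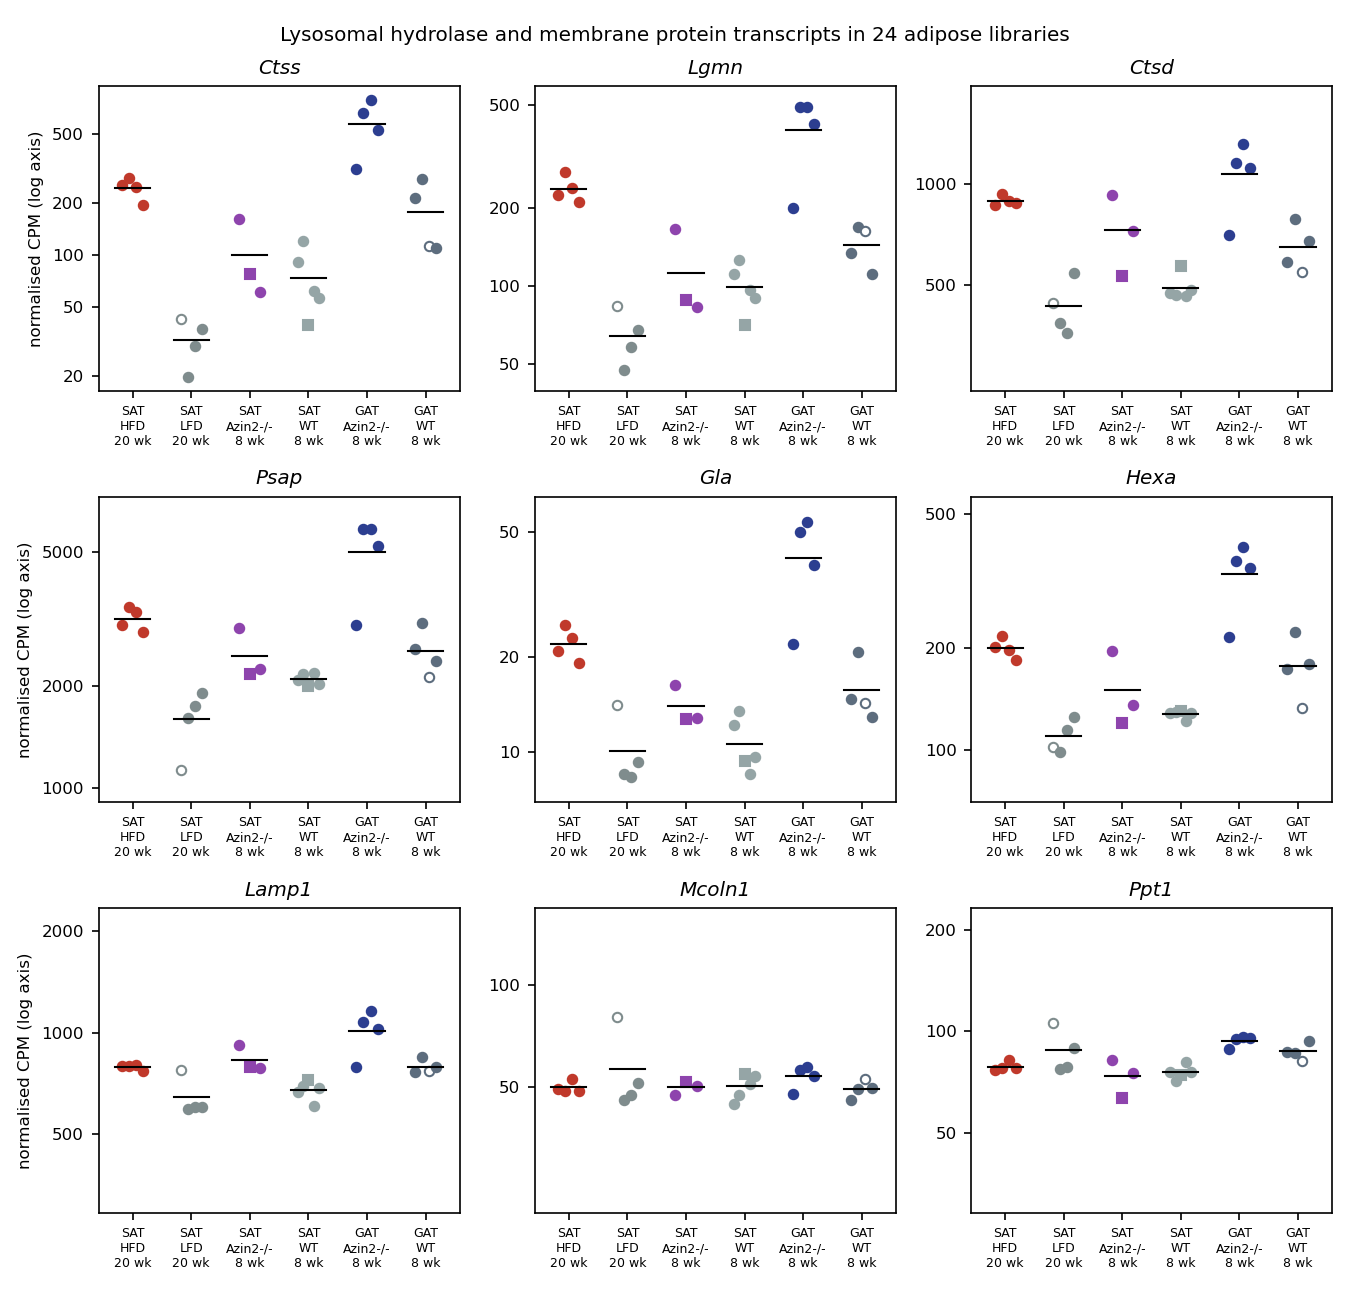
Normalised CPM (log axis, at least an 8-fold span) of 9 lysosomal genes in each of the 24 libraries, by group, with black bars for group means. Open circles are low-fat replicate 1 and GAT wild-type replicate 3 (epididymis transcripts) and squares are SAT Azin2-/- replicate 2 and SAT wild-type replicate 3 (muscle transcripts). Ctss and Lgmn spread most between groups, while Mcoln1 and Ppt1 vary less and are highest in low-fat replicate 1.

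Markers of macrophages moved with these genes. Of 12 macrophage markers, 11 were called higher on the high-fat diet without low-fat replicate 1, and their summed level was 1189 to 1469 CPM in high-fat libraries and 330 to 523 CPM in low-fat libraries. Of 8 markers of lipid-associated macrophages, 7 were called higher, with sums of 1310 to 1750 CPM on the high-fat diet and 237 to 387 CPM on the low-fat diet. The macrophage receptor gene Adgre1 rose by 2.43 ± 0.15 on the log2 scale, Csf1r by 1.45 ± 0.10, Cd68 by 2.98 ± 0.18 and Trem2 by 4.68 ± 0.63, while the adipocyte hormone gene Adipoq fell by 0.48 (SE 0.12). Of 8 adipocyte markers 6 were called lower, with sums of 23660 to 24750 CPM on the high-fat diet and 28500 to 34110 CPM in low-fat replicates 3, 5 and 6. Against the same low-fat libraries, endothelial markers summed to 1454 to 1598 and 1161 to 1307 CPM. Progenitor markers summed to 901 to 1130 and 657 to 793 CPM, and mesothelium markers to 1.03 to 1.37 and 3.06 to 7.52 CPM. Markers of osteoclast-like and fused macrophages overlapped in their sum, at 435 to 463 and 432 to 513 CPM, of which Acp5 held the largest part. Single genes of that list went both ways. With all 8 libraries, Dcstamp (3.24 ± 0.54, means of 3.57 and 0.36 CPM), Ocstamp (2.32 ± 0.29) and Ctsk (2.20 ± 0.51) were called higher by edgeR. Acp5 (-0.28 ± 0.38), Mmp9 (-0.84 ± 0.28) and Oscar (-0.33 ± 0.38) had the opposite sign and were not called. With all 8 libraries, 10 of the 12 macrophage markers and 6 of the 8 lipid-associated ones were called higher and 0 of the 8 adipocyte markers lower by edgeR (Adipoq -0.20 ± 0.38, adjusted p = 0.722; 0 of the 8 had an unadjusted p under 0.05). The part of these markers in the lysosomal result was not tested, and in whole tissue fewer cells of a type and less RNA per cell cannot be told apart.

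The pump was unevenly affected. Atp6v0d1 and Atp6v0d2 encode alternative d subunits of the membrane sector; the d1 form is widely expressed, and the d2 form is known from osteoclasts, macrophages, kidney and epididymis. Atp6v0d2 held 69.6, 102, 87.2 and 60.1 CPM in the high-fat libraries, against 0.86, 1.01 and 1.81 CPM in low-fat replicates 3, 5 and 6 and 73.8 CPM in low-fat replicate 1. It was thus near absent from 3 low-fat libraries and at the level of the high-fat ones in the library with epididymis transcripts. Its log2 fold change was 6.00 ± 0.36 (adjusted p = 6.68e-05) without that library and 1.98 ± 1.43 (adjusted p = 0.342) with it. Atp6v0d1 held 134, 144, 140 and 135 CPM on the high-fat diet and 121, 125, 108 and 119 CPM on the low-fat diet, a log2 fold change of 0.23 ± 0.07 (adjusted p = 0.0216) without low-fat replicate 1 and 0.20 ± 0.08 (adjusted p = 0.111) with it. Per length, Atp6v0d2 stood at 106 ± 24.8 TPM beside 277 ± 9.71 TPM of Atp6v0d1 in high-fat SAT (SD, n = 4), and at 1.47 ± 0.61 TPM beside 213 ± 20.2 TPM in the 3 low-fat libraries. In the soluble sector, the catalytic subunit gene Atp6v1a held 191, 228, 209 and 193 CPM on the high-fat diet and 127, 114, 98.2 and 119 CPM on the low-fat diet. Its partner in the catalytic ring, Atp6v1b2, held 266, 313, 271 and 256 CPM and 134, 136, 135 and 149 CPM. Both rose, by 0.89 ± 0.09 and 0.98 ± 0.09 on the log2 scale without low-fat replicate 1. The accessory subunit Atp6ap1 rose by 0.16 ± 0.06 (adjusted p = 0.0424), a call that was lost without any 1 of high-fat replicates 3, 4 and 5 or low-fat replicates 3 and 5 (32 of the 39 called each time). Atp6v1h, a regulatory subunit, was at 0.04 ± 0.07 (adjusted p = 0.671).

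**Figure D2:**
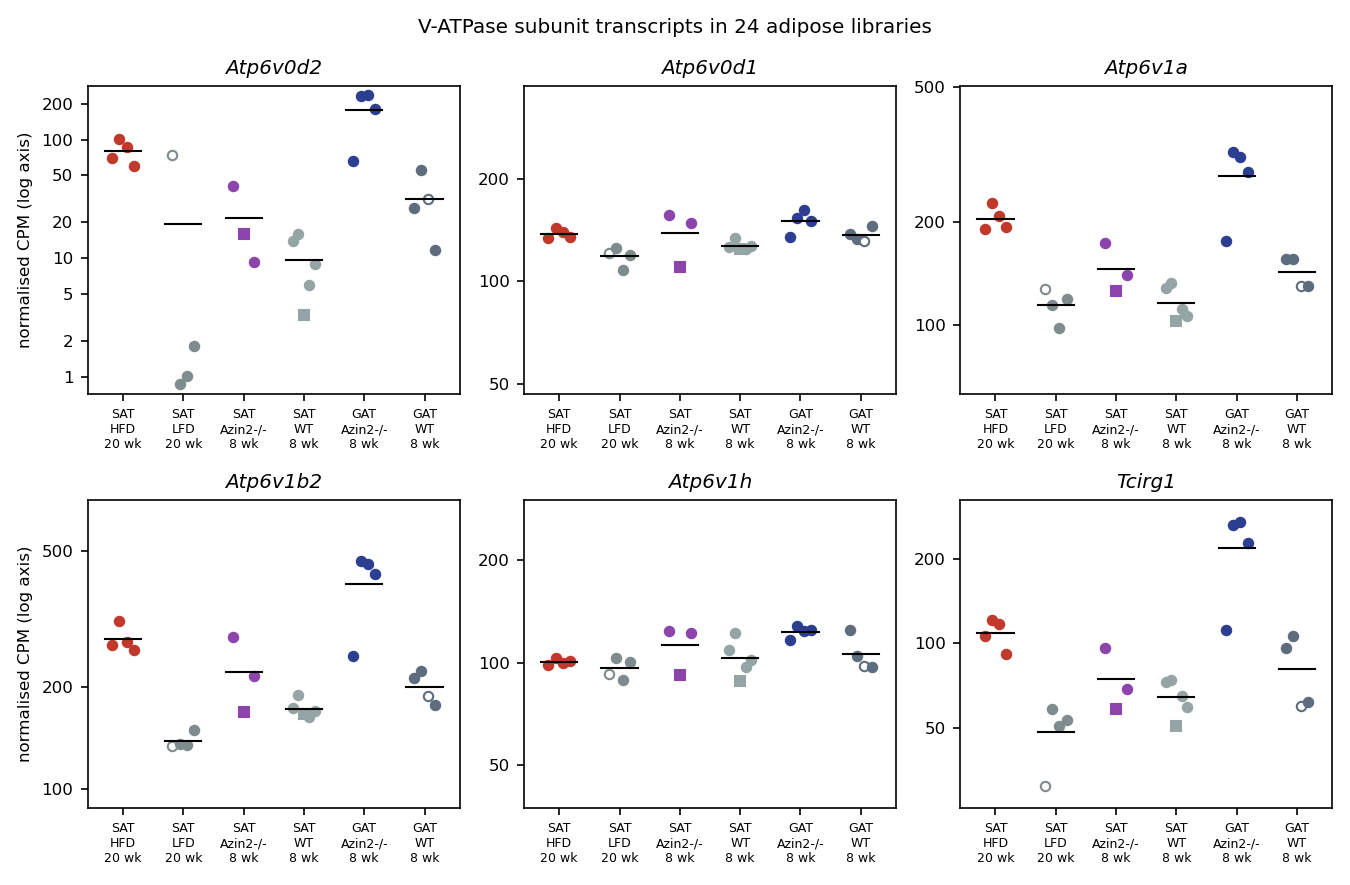
Normalised CPM (log axis, at least an 8-fold span) of 6 V-ATPase subunit genes in each library, by group, with black bars for group means and the same open circles and squares for libraries with epididymis and muscle transcripts. Atp6v0d2 covers 0.86 to 237 CPM, whereas Atp6v0d1 stays between 108 and 162 CPM; the open circle in low-fat SAT at 73.8 CPM is low-fat replicate 1.

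The second comparison set Azin2-/- GAT beside wild-type GAT, both after 8 weeks of high-fat feeding. Here 19 of 39 genes were called higher in Azin2-/- GAT and 0 lower, where 5.45% of 16778 genes tested were called higher, 1.32% lower and 6.77% in either direction. The median log2 fold change of the 39 was 0.43, against -0.04 for all genes. Levels of Azin2-/- and wild-type libraries did not overlap for 11 of 39 genes, where 8.77% of all genes were apart in that direction. The calls lay close to the threshold, with adjusted p between 0.0408 and 0.049. They did not outlast the loss of most single libraries: 0 were called without Azin2-/- replicate 2, 3 or 4 (smallest adjusted p 0.142, 0.129 and 0.128) and 0 without wild-type replicate 2 or 4 (0.0851 and 0.118). Over all genes tested, 0.00585% were called without Azin2-/- replicate 2. The share was 0% without Azin2-/- replicate 3 or 4 or wild-type replicate 2 or 4, so these losses were not particular to the 39. The count of the 39 was 10 without wild-type replicate 1 (9.86% of all genes) and 11 without wild-type replicate 3 (7.94%). It was 26 without Azin2-/- replicate 1.

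Azin2-/- replicate 1 lay near the wild-type libraries for most of the 39. Summed over the 39, replicate 1 of this group reached 13240 CPM and replicates 2, 3 and 4 reached 22350, 23260 and 20470 CPM, against 11500, 13470, 10960 and 11460 CPM in the wild-type libraries. The 12 macrophage markers followed the same order, at 1195, 2382, 2636 and 2099 CPM in Azin2-/- GAT and 945, 1025, 711 and 837 CPM in wild-type GAT. Of the 12, 10 were called higher (Adgre1 1.87 ± 0.32, Csf1r 1.17 ± 0.20, Cd68 2.07 ± 0.39 on the log2 scale), as were 4 of 8 lipid-associated macrophage markers (Trem2 2.31 ± 0.48), while 1 of 8 adipocyte markers, the lipase gene Pnpla2, was called lower (-0.66 ± 0.16, adjusted p = 0.0473) and Adipoq was at -0.69 ± 0.22 (adjusted p = 0.0869). Adipocyte markers summed to 18810 to 22180 CPM in Azin2-/- GAT and 20520 to 31530 CPM in wild-type GAT. Of 5 mesothelium markers 0 were called by edgeR, 5 had an unadjusted p under 0.05, and their sum was 27.9 to 122 CPM in Azin2-/- GAT and 55.3 to 462 CPM in wild-type GAT. Their part in the result was not tested.

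Atp6v0d2 had the largest log2 fold change of the 39 in GAT. It held 65.5, 232, 237 and 182 CPM in Azin2-/- GAT (replicates 1 to 4) against 26.5, 55.4, 31.9 and 11.6 CPM in wild-type GAT, a log2 fold change of 2.49 ± 0.53 (adjusted p = 0.0409). Every Azin2-/- library lay above every wild-type one, replicate 1 by a small margin. Ctss held 314, 663, 794 and 533 CPM in Azin2-/- GAT and 214, 277, 114 and 110 CPM in wild-type GAT (1.67 ± 0.37, adjusted p = 0.0413). Lgmn held 199, 488, 491 and 422 CPM and 134, 169, 162 and 111 CPM in the same order (1.45 ± 0.28, adjusted p = 0.0408). Gla held 22.0, 49.9, 53.7 and 39.1 CPM in Azin2-/- GAT and 14.7, 20.8, 14.2 and 12.8 CPM in wild-type GAT (1.38 ± 0.27, adjusted p = 0.0408). For these 3 genes as well the groups were apart, and Azin2-/- replicate 1 was the lowest of its group. Gusb held 150, 306, 322 and 267 CPM in Azin2-/- GAT against 126, 152, 109 and 121 CPM in wild-type GAT (1.03 ± 0.22, adjusted p = 0.0409), with Azin2-/- replicate 1 inside the wild-type range. Atp6v1b2 held 247, 467, 458 and 428 CPM in Azin2-/- GAT and 212, 222, 188 and 177 CPM in wild-type GAT (0.98 ± 0.19, adjusted p = 0.0408), and these groups were apart.

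By role, 6 of 10 proteases were called in GAT (Ctsa, Ctsb, Ctsc, Ctsl, Ctss, Lgmn), 5 of 11 glycosidases and sulfatases (Hexa, Gla, Gusb, Galns, Naglu), 3 of 6 lipid genes (Npc1, Psap, Asah1), 0 of 4 membrane genes and 3 of 6 pump genes (Atp6v0d2, Atp6v1a, Atp6v1b2). Psap, with 3042, 5841, 5864 and 5205 CPM in Azin2-/- GAT and 2572, 3080, 2127 and 2383 CPM in wild-type GAT, rose by 0.96 ± 0.22 on the log2 scale. Ctsd, with 704, 1150, 1315 and 1110 CPM against 588, 785, 548 and 676 CPM, did not pass the test (0.71 ± 0.20, adjusted p = 0.0645), nor did Lamp1, with 793, 1077, 1158 and 1024 CPM against 767, 846, 769 and 790 CPM (0.34 ± 0.12, adjusted p = 0.113). Atp6v0d1 was at 135, 153, 162 and 151 CPM in Azin2-/- GAT and 137, 133, 132 and 145 CPM in wild-type GAT (0.12 ± 0.07, adjusted p = 0.27). Wild-type replicate 3, the GAT library with epididymis transcripts, was the highest of all 8 for Man2b1 (509 CPM; 293 to 443 CPM in Azin2-/- GAT, 243 to 252 CPM in the other wild-type libraries), Manba (53.4 CPM) and Neu1 (74.3 CPM). Without it, Man2b1, Manba and Ctsh were called higher in Azin2-/- GAT.

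The diet and GAT genotype comparisons share no library. Of the 33 genes higher on the high-fat diet (without low-fat replicate 1) and the 19 higher in Azin2-/- GAT, 18 were on both lists, which is 18 of 33 and 18 of 19. With 33 of the 39 called for diet, most of any 19 of them would be on both lists. Over all genes, 23.5% were called higher for diet and 5.45% in Azin2-/- GAT, and their overlap was not counted. A shared response is therefore not read from this overlap. The gene called in GAT alone was Tfeb. The 15 called for diet and not in GAT included Lamp1, Lamp2, Scarb2, Atp6v0d1 and Atp6ap1, as well as Ctsd, Ctsh, Ctsz, Tpp1, Glb1, Arsb, Man2b1, Manba, Neu1 and Npc2.

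**Figure D3:**
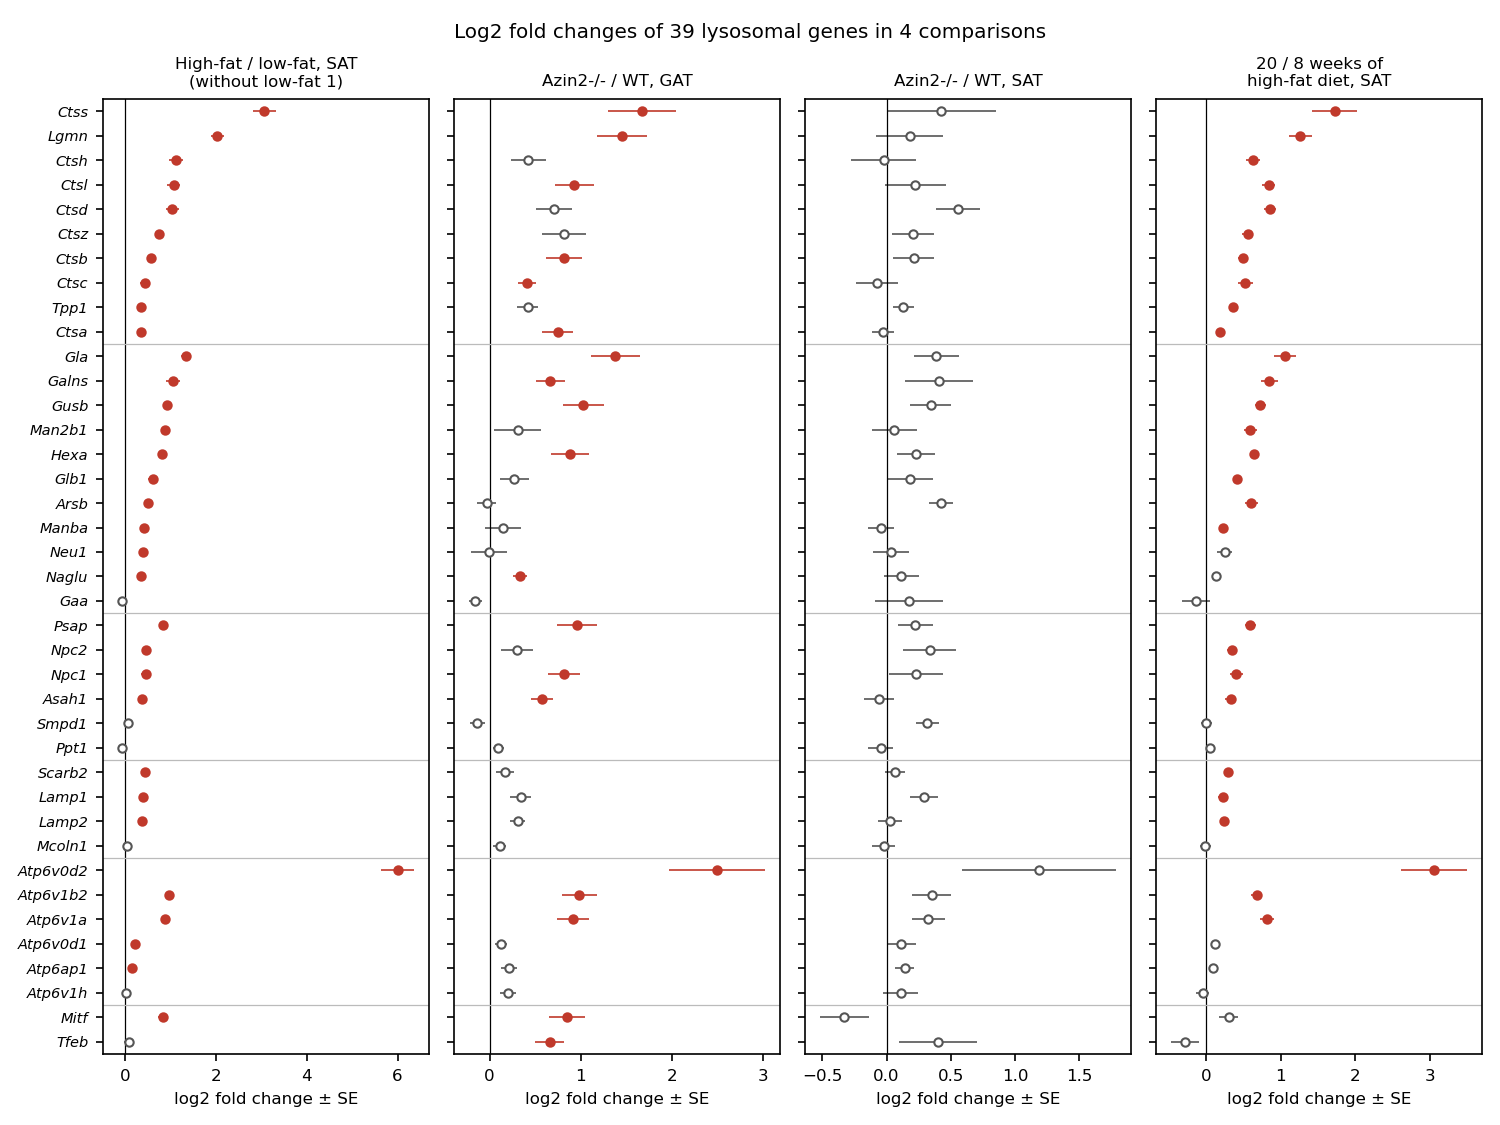
Log2 fold change ± SE of the 39 genes, ordered by role and within a role by the diet value, in 4 comparisons; filled red points were called at an adjusted p under 0.05 (edgeR) and the horizontal scales differ between columns. In the diet column 33 points are filled, in the GAT column 19, in the SAT genotype column 0 and in the column of 20 against 8 weeks 28.

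In SAT, loss of Azin2 gave no call among the 39. With edgeR, 0 of 39 were called, where 0.0059% of 16948 genes were called (0.0059% higher, 0% lower), and 6 of 39 had an unadjusted p under 0.05, where 10.3% of all genes did. Levels were apart between genotypes for 4 of 39 (Atp6ap1, Lamp1, Smpd1 and Arsb), all higher, where 3.09% of all genes were apart in that direction. DESeq2 called 2 (Arsb and Smpd1) and limma-voom with quality weights 3 (these and Ctsd), all higher in Azin2-/- SAT. Over all genes, these methods called 1.99% and 1.76%. The median log2 fold change was 0.18, against 0.01 for all genes. Ctsd held 927, 533 and 725 CPM in Azin2-/- SAT against 475, 468, 570, 466 and 483 CPM in wild-type SAT (0.56 ± 0.17, adjusted p = 0.361). Arsb, the arylsulfatase that acts on dermatan sulfate, held 104, 114 and 110 CPM in Azin2-/- SAT and 73.5 to 93.3 CPM in wild-type SAT, so the groups were apart (0.42 ± 0.10, adjusted p = 0.244). Atp6v0d2 held 40.4, 15.9 and 9.31 CPM in Azin2-/- SAT and 13.9, 15.8, 3.30, 5.94 and 8.89 CPM in wild-type SAT (1.19 ± 0.60, adjusted p = 0.542), and the groups overlapped. Lamp1 held 920, 791 and 788 CPM in Azin2-/- SAT and 605 to 723 CPM in wild-type SAT (0.29 ± 0.11, adjusted p = 0.436), and Atp6v0d1 held 157, 110 and 148 CPM and 124 to 134 CPM. Azin2-/- replicate 1 was the highest of the 8 libraries for Ctss, Lgmn, Atp6v0d2 and Psap. It also had the highest sum of macrophage markers, 892 CPM, against 474 and 523 CPM in the other Azin2-/- libraries and 522 to 776 CPM in wild-type SAT. The part of these markers was not tested.

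Whether the effect of genotype differed by depot (GAT minus SAT) was tested directly. With edgeR, 0 of 39 were called, where 0% of 18033 genes were, and 15 of 39 had an unadjusted p under 0.05, where 11.2% of all genes did. DESeq2 called 3 (Ctsa, Mitf and Smpd1), where it called 0.51% of all genes, and limma-voom 23, where it called 15.1%. Without GAT Azin2-/- replicate 1, edgeR called 2 (Ctsa and Mitf), where it called 0.596% of all genes. The largest values were 1.32 ± 0.86 for Atp6v0d2, 1.28 ± 0.41 for Lgmn, 1.25 ± 0.61 for Ctss and 1.18 ± 0.30 for Mitf, with adjusted p of 0.312 or more, so an effect of genotype confined to GAT was not shown. Lamp1 (0.05), Ctsd (0.15), Tfeb (0.26) and Atp6v0d1 (0.01) lay nearer to 0.

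Between depots of wild-type mice, 6 of 39 genes were called higher in GAT than in SAT and 0 lower, where 2.47% of 17030 genes were called higher, 1.87% lower and 4.33% in either direction. The depots did not overlap for 13 of 39, all higher in GAT, where 5.15% of all genes were apart in that direction. Among the 6, cathepsin H had the largest log2 fold change, with 81.7, 85.8, 126 and 72.9 CPM in GAT and 46.8, 60.3, 53.2, 51.0 and 49.8 CPM in SAT (0.82 ± 0.16, adjusted p = 0.0208). The others were Galns (0.68), Npc2 (0.65), Gusb (0.50), Ctsc (0.47) and Naglu (0.33). Npc2, which hands cholesterol to Npc1, held 744 to 1083 CPM in GAT and 569 to 662 CPM in SAT. GAT wild-type replicate 3, the library with epididymis transcripts, gave the 126 CPM of Ctsh and the 1083 CPM of Npc2. It also held 32.1 CPM of Galns, against 21.2 to 22.9 CPM in the other wild-type GAT libraries. Atp6v0d2 (1.71 ± 0.53, adjusted p = 0.116), Ctsd (0.40 ± 0.12), Lamp1 (0.23 ± 0.08), Atp6v0d1 (0.11 ± 0.06), Mitf (-0.08 ± 0.15) and Tfeb (-0.36 ± 0.20) did not pass the test. Some GAT and SAT libraries carry the same mark in their titles, and with that mark as a replicate block 0 of the 6 were called (smallest edgeR adjusted p 0.29). That fit called 0% of all 17030 genes tested, so the loss was not particular to these genes. Single libraries also moved the count, which was 0 without SAT wild-type replicate 1, 1 without SAT wild-type replicate 5 or GAT wild-type replicate 2, 2 without SAT wild-type replicate 4, and 3 or 4 without GAT wild-type replicate 4 or 1. Leaving out these libraries, GAT wild-type replicate 1 aside, 1.71% (GAT wild-type replicate 2) to 2.65% (SAT wild-type replicate 4) of all genes were called. The count of the 39 was 8 without GAT wild-type replicate 3, where the call of Galns was lost. Macrophage markers summed to 711 to 1025 CPM in wild-type GAT and 522 to 776 CPM in wild-type SAT, and their part was not tested.

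Between depots of Azin2-/- mice, 17 genes were called higher in GAT and 2 lower, where 9.13% of 16800 genes were called higher, 6.04% lower and 15.2% in either direction. Atp6v0d2 (3.02 ± 0.65), Ctss (2.51 ± 0.45), Lgmn (1.82 ± 0.39), Gla (1.55 ± 0.30), Ctsh (1.26 ± 0.31) and Gusb (1.19 ± 0.29) led on the log2 scale. Ctss held 314 to 794 CPM in Azin2-/- GAT and 162, 77.9 and 61.7 CPM in Azin2-/- SAT, and Lgmn 199 to 491 CPM in GAT and 166, 87.9 and 83.1 CPM in SAT. Ctsh held 91.8, 138, 143 and 126 CPM in GAT and 77.4, 30.9 and 46.7 CPM in SAT. Gla held 22.0 to 53.7 CPM in GAT and 16.3, 12.7 and 12.8 CPM in SAT, and Gusb 150 to 322 CPM in GAT and 148, 88.3 and 106 CPM in SAT. For each of these 5 the depots were apart, Gusb by the smallest margin. Over the 39, 20 were apart and higher in GAT, where 15.4% of all genes were, and 2 apart and lower, where 16.1% were. Mitf was also called (1.09 ± 0.25, adjusted p = 0.033), while Ctsd (0.55 ± 0.26), Lamp1 (0.28 ± 0.15), Atp6v0d1 (0.12 ± 0.13) and Tfeb (-0.10 ± 0.29) did not pass the test. The lower genes were Arsb, with 64.9, 75.4, 69.5 and 69.4 CPM in GAT and 104, 114 and 110 CPM in SAT (-0.65 ± 0.07, adjusted p = 0.0112), and Smpd1, with 107, 99.6, 99.3 and 104 CPM in GAT and 134, 124 and 128 CPM in SAT (-0.33 ± 0.07, adjusted p = 0.0274). Of the 19 calls, 0 were left without GAT Azin2-/- replicate 2 or SAT Azin2-/- replicate 3, and 1 (Arsb) without GAT Azin2-/- replicate 3 or 4. Over all genes tested, 0.217%, 0.233%, 1.67% and 1.31% were called without these libraries, in the same order. The count of the 39 was 26 without SAT Azin2-/- replicate 1 and 13 without SAT Azin2-/- replicate 2, the muscle-rich library. Macrophage markers summed to 1195 to 2636 CPM in Azin2-/- GAT and 474 to 892 CPM in Azin2-/- SAT (11 of 12 called higher), and lipid-associated macrophage markers to 1518 to 4290 CPM and 503 to 1155 CPM (7 of 8 called higher). Adipocyte markers summed to 18810 to 22180 CPM in GAT and 24500 to 33250 CPM in SAT, with 4 of 8 called lower, and all 5 mesothelium markers were called higher. The part of these markers was not tested. The depot comparisons share libraries with the genotype comparisons, so their values are given side by side only.

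Set against wild-type SAT after 8 weeks of the same diet, high-fat SAT after 20 weeks had 28 of 39 genes called higher and 0 lower, where 19.6% of 16953 genes were called higher, 19.5% lower and 39% in either direction. The groups did not overlap for 28 of 39, all higher, where 17.6% of all genes were apart in that direction. The median of the 39 was 0.41 on the log2 scale, against -0.04 for all genes. Feeding time, experiment and age cannot be told apart here, and the high-fat libraries are those of the diet comparison. Atp6v0d2 (3.05 ± 0.45), Ctss (1.72 ± 0.30), Lgmn (1.27 ± 0.15), Gla (1.06 ± 0.14), Ctsd (0.86 ± 0.08) and Galns (0.85 ± 0.11) led. For Ctss the high-fat libraries at 20 weeks held 197 to 280 CPM and wild-type SAT at 8 weeks 39.5 to 121 CPM. Galns held 26.7 to 29.0 CPM at 20 weeks and 12.5 to 18.8 CPM at 8 weeks. Lamp1 was called at 0.23 ± 0.07 (adjusted p = 0.0225), a call lost without high-fat replicate 3, 4 or 5 or SAT wild-type replicate 1 (adjusted p up to 0.0601), and Atp6v0d1 (0.12 ± 0.05) and Tfeb (-0.28 ± 0.19) did not pass the test. All 10 proteases, 8 of 11 glycosidases and sulfatases, 4 of 6 lipid genes, 3 of 4 membrane genes and 3 of 6 pump genes were called. Macrophage markers summed to 1189 to 1469 CPM at 20 weeks and 522 to 776 CPM at 8 weeks, and their part was not tested.

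Mitf was called for diet and in GAT, and Tfeb in GAT, and the difference between the factors was not tested. Mitf held 24.4, 26.3, 23.6 and 22.7 CPM on the high-fat diet and 6.86, 11.1, 15.1 and 14.2 CPM on the low-fat diet, and rose with all 8 libraries (1.03 ± 0.22, adjusted p = 0.016) and without low-fat replicate 1 (0.85 ± 0.11, adjusted p = 0.000428). With all 8 libraries its call was lost without high-fat replicate 3 or 4. In GAT it held 20.7, 38.7, 40.4 and 35.1 CPM in Azin2-/- and 19.2, 21.4, 15.01 and 18.5 CPM in wild-type libraries (0.85 ± 0.20, adjusted p = 0.0455). In SAT of the genotype experiment Mitf was at 17.1, 18.1 and 12.1 CPM in Azin2-/- and 16.7 to 25.2 CPM in wild-type libraries (-0.33 ± 0.19, adjusted p = 0.582), and against 8 weeks its value at 20 weeks was 0.31 ± 0.13 (adjusted p = 0.0882). Tfeb held 19.0, 21.9, 20.6 and 22.5 CPM on the high-fat diet and 13.5, 19.8, 23.2 and 16.3 CPM on the low-fat diet, without a call (0.09 ± 0.11, adjusted p = 0.541, without low-fat replicate 1). In GAT, Tfeb held 22.7, 34.9, 37.3 and 31.9 CPM in Azin2-/- and 22.7, 21.6, 17.96 and 17.3 CPM in wild-type libraries (0.66 ± 0.16, adjusted p = 0.0461), with Azin2-/- replicate 1 at the top of the wild-type range. In SAT its highest values, 51.2 CPM in replicate 2 of Azin2-/- SAT and 39.7 CPM in replicate 3 of wild-type SAT, were those of the 2 libraries rich in muscle transcripts, and the other SAT libraries of that experiment held 19.9 to 25.5 CPM. The part of muscle in these values was not tested.

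**Figure D4:**
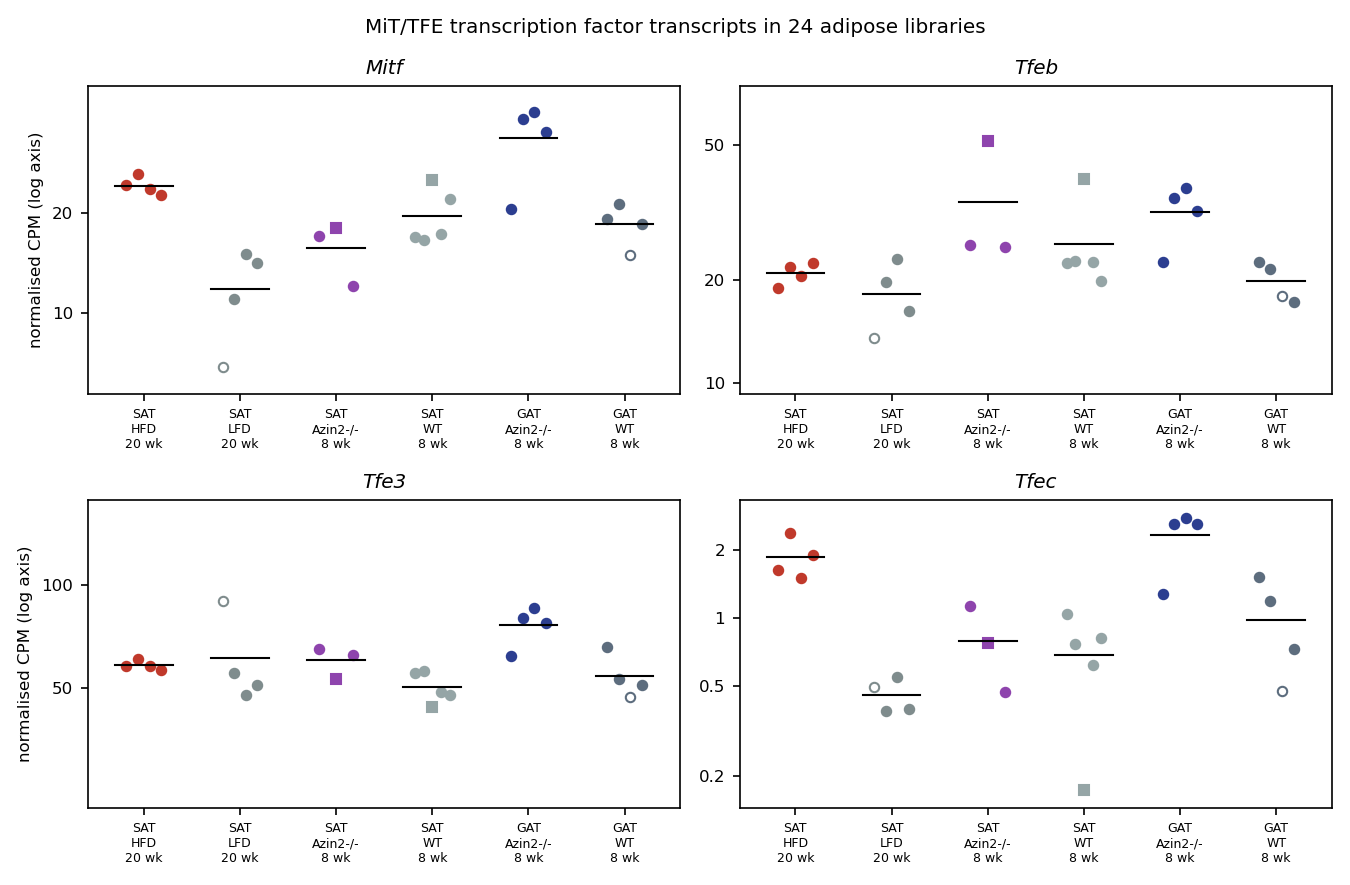
Normalised CPM (log axis, at least an 8-fold span) of Mitf, Tfeb, Tfe3 and Tfec in each library, by group, with black bars for group means, open circles for libraries with epididymis transcripts and squares for libraries with muscle transcripts. Mitf and Tfec are higher in all 4 high-fat libraries than in the low-fat ones, while Tfeb overlaps between diets and peaks at 51.2 and 39.7 CPM in the muscle-rich SAT libraries.

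Other genes of the same pathways were taken from lists outside the 39. Of 18 genes of the TFE family and its nutrient control, 5 rose and 1 fell on the high-fat diet without low-fat replicate 1, where 23.5% of all genes were called in each direction, and 2 rose and 0 fell (edgeR; 6 with an unadjusted p under 0.05) with all 8 libraries. They included Tfec (2.06 ± 0.25), a family member mainly of macrophages, read at 1.51 to 2.39 CPM on the high-fat diet and 0.39 to 0.55 CPM on the low-fat diet, the family member Tfe3 (0.19 ± 0.07, adjusted p = 0.0462), the folliculin partner Fnip2 (1.35 ± 0.08) and the lysosomal scaffold gene Lamtor1 (0.25 ± 0.06), while the calcineurin subunit gene Ppp3cb fell by 0.50 (SE 0.11). With all 8 libraries Tfec and Fnip2 were called, Tfe3 had the opposite sign (-0.09 ± 0.21, adjusted p = 0.781), and Lamtor1 and Ppp3cb did not pass the test. In Azin2-/- GAT, Tfec (1.23 ± 0.39, adjusted p = 0.09) and Tfe3 (0.48 ± 0.13, adjusted p = 0.0575) did not pass the test, Fnip2 rose (1.21 ± 0.21) and Zkscan3, described as a repressor of lysosomal genes, fell by 0.29 (SE 0.06). Of 16 further V-ATPase subunits tested, 6 rose and 2 fell with diet without low-fat replicate 1, where 23.5% of all genes were called in each direction, and 2 rose and 1 fell with all 8 libraries. The a subunit genes Atp6v0a1 (1.06 ± 0.10) and Tcirg1 (1.01 ± 0.10) and the accessory Atp6ap2 (0.59 ± 0.07) rose, and Atp6v0e2 and Atp6v1g1 fell by 1.21 and 0.38. Of these, Atp6ap2 and Atp6v1g1 were not called with all 8 libraries. In GAT 3 of 16 were called higher in Azin2-/-, Atp6v0a1 (0.89 ± 0.17), Tcirg1 (1.42 ± 0.30) and Atp6v1c1 (0.58 ± 0.14).

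Of 34 further hydrolases and activators, 12 rose and 4 fell with diet without low-fat replicate 1, where 23.5% of all genes were called in each direction, and 7 rose and 1 fell with all 8 libraries, while 10 rose and 0 fell in Azin2-/- GAT. Cathepsin K (Ctsk, 1.86 ± 0.08), the DNase Dnase2a (1.60 ± 0.10) and the galactosylceramidase Galc (1.05 ± 0.08) rose on the high-fat diet, while the protease gene Ctso, the amidase gene Naaa and the hyaluronidase gene Hyal1 fell by 0.53, 0.52 and 0.63. With all 8 libraries Dnase2a (0.80 ± 0.49, adjusted p = 0.266), Ctso and Naaa were not called. In Azin2-/- GAT the phospholipase Pla2g15 (0.90 ± 0.15), the acid lipase Lipa (1.79 ± 0.32) and Pld3 (1.31 ± 0.25) rose. Of 23 further membrane proteins tested, 15 rose and 1 fell with diet without low-fat replicate 1, against the same 23.5% of all genes in each direction, and 7 rose and 0 fell (edgeR; 10 with an unadjusted p under 0.05) with all 8 libraries. In GAT 7 rose. Mcoln2, a relative of Mcoln1, rose by 3.38 ± 0.25 with diet, and the metal transporter Slc11a1 by 1.82 ± 0.14. The 2-pore channel gene Tpcn2 rose by 1.45 ± 0.25 and Slc11a1 by 1.61 ± 0.29 in Azin2-/- GAT. Cd68, also in this list, is a macrophage marker as given above. The cystine exporter Ctns fell by 0.25 with diet, a call lost with all 8 libraries (-0.19 ± 0.09, adjusted p = 0.162).

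Genes of hydrolase tagging, transport and sorting, not all of them of the mannose 6-phosphate route, went both ways. Of 11, 5 rose and 3 fell with diet without low-fat replicate 1, where 23.5% of all genes were called in each direction, and 2 rose (Cln8 and Igf2r) and 1 fell (Gga2) with all 8 libraries. Without that library they included the receptors Igf2r (0.61 ± 0.09) and M6pr (0.36 ± 0.07) and Cln8 (0.76 ± 0.08), which ferries hydrolases from the endoplasmic reticulum, against Gga2, Sort1 and Gga1, which fell by 0.42, 0.37 and 0.23. In Azin2-/- GAT only Cln8 of the 11 passed the test (1.03 ± 0.21).

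Gaa, Ppt1, Mcoln1 and Atp6v1h were called by edgeR in none of the 8 fits. Mcoln1 held 47.8, 56.2, 57.4 and 53.9 CPM in Azin2-/- GAT and 45.9 to 52.7 CPM in wild-type GAT (0.11 ± 0.07, adjusted p = 0.361), and 48.7 to 52.8 CPM on the high-fat diet against 45.9 to 51.4 CPM in low-fat replicates 3, 5 and 6. Mcoln1 was higher in low-fat replicate 1, with 3572 read counts against 1652 to 2069 in low-fat replicates 3, 5 and 6. Its promoter carries the hexamer 2 times and that of Lamp1 4 times, as printed above, and neither passed the test in GAT. Of the 9 genes with GTCACGTG in a window, 8 were called higher with diet (without low-fat replicate 1) and 4 in Azin2-/- GAT. Of the 22 windowed genes without it, 18 and 9 were. Whether the motif bears on these calls was not tested.

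Several of the 39 overlap another gene, and the labels do not state the strand setting of the counting. Ctsd shares 808 exonic bases with Gm49369 on its own strand, Ctsl 395 with Gm49230 and Glb1 165 with Tmppe, so reads there may have been left out or shared. Ctsa, Ctsb, Ctsl, Ctsz, Hexa, Arsb, Npc1, Ppt1, Lamp1 and Atp6v1h have antisense partners, and reads from them cannot be told apart without the strand.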

How the data were processed

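Whole adipose RNA was read with a stranded total RNA kit, paired-end, per the labels' protocols. The authors deposited raw read counts per Ensembl gene, 1 table per library. Cutadapt, STAR and HTSeq 0.6.1p1 with GRCm38 (also named mm10) are named per the submitters' processing notes, with counting mode and strand not stated there. Of 49585 identifiers, 49326 matched GENCODE M21 and 259, with 0.0103% of counts, did not.

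Each comparison was fitted on its own libraries with edgeR 4.0.16 (R 4.3.3; filterByExpr, minimum count 10 and total 15; TMM; robust quasi-likelihood test), Benjamini-Hochberg adjusted over all genes tested and called under 0.05. Printed CPM use TMM factors over all 24 libraries. TPM use the union of exons. limma 3.58.1 and DESeq2 1.42.0 served as alternatives, with no filter, 1 fit of all libraries, a replicate block and each library left out. The code was tested on simulated data.

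The 39 genes and the lists were chosen with earlier results of these data known. Values in every library are given for up to 6 called genes per direction and comparison of largest log2 fold change and for Atp6v0d1, Atp6v0d2, Mitf, Tfeb, Lamp1 and Ctsd; from other lists, up to 3 called genes per direction of smallest p. Atp6v1a, Psap, Arsb, Smpd1, Mcoln1 and Gaa are given in more detail after their values were seen.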

Additional observations from a re-analysis of the deposited data

Results flagged for a closer look

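Among 95 sets of 4 or 5 libraries, over 19 of the 39 genes, 10 held a library far from the rest of its group, where chance gives about 1 in 20. The low-fat library with epididymis transcripts, replicate 1, was that library for 4 genes. It held 73.8 CPM of Atp6v0d2 (0.86 to 1.81 CPM in low-fat replicates 3, 5 and 6), 112 CPM of Ctsh (28.1 to 41.7 CPM), 14.1 CPM of Gla (8.31 to 9.24 CPM) and 775 CPM of Lamp1 (592 to 603 CPM). Atp6v1b2 was highest in low-fat replicate 6 at 149 CPM (134 to 136 CPM in the others).

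SAT wild-type replicate 3, rich in muscle transcripts, held 570 CPM of Ctsd (466 to 483 CPM in the others) and 39.7 CPM of Tfeb (19.9 to 22.7 CPM). SAT wild-type replicate 2 held 134 CPM of Atp6v0d1 (124 to 127 CPM). High-fat replicate 4 held 1117 CPM of Ctsl (950 to 967 CPM). GAT wild-type replicate 3, with epididymis transcripts, held 32.1 CPM of Galns (21.2 to 22.9 CPM). The part of epididymis and muscle in these values was not tested.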

How the results depend on the processing

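Counts of the 39 genes called kept within 1.5 times under the other settings tried, with these exceptions. Percentages in brackets are the share of all genes called under the same setting, in either direction. For diet with all 8 libraries, 19 became 32 with limma-voom (46.9%) and 30 with the replicate block (34.4%). For genotype in SAT, 0 became 2 with DESeq2 (1.99%) and 3 with limma-voom (1.76%). For genotype in GAT, 19 became 34 with limma-voom (38.5%), of which 32 were higher and 2 lower. That count became 0 with no low-count filter (0% of 30262 genes tested, smallest edgeR adjusted p 0.0626). For depot in wild-type, 6 became 21 with DESeq2 (10.5%) and 19 with limma-voom (14.6%). It became 2 with all libraries in 1 fit (3.31%) and 0 with the replicate block (0%). For depot in Azin2-/-, 19 became 31 with limma-voom (39.5%). For the difference between depots, 0 became 3 with DESeq2 (0.51%) and 23 with limma-voom (15.1%). For 20 against 8 weeks, 28 became 17 with all libraries in 1 fit (22.3%). With 1 library left out at a time the count was 11 to 33 (diet, 12 without high-fat replicate 3), 32 to 33 (diet without low-fat replicate 1), 0 to 0 (genotype in SAT), 0 to 26 (genotype in GAT), 0 to 8 (depot in wild-type), 0 to 26 (depot in Azin2-/-), 0 to 2 (difference between depots) and 26 to 29 (20 against 8 weeks). The cause of these changes was not tested. The genes called in every such fit numbered 10 of 19, 32 of 33, 0 of 19 (genotype in GAT), 0 of 6, 0 of 19 and 26 of 28.

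Signs turned only for values that were not called. Tfeb between depots of Azin2-/- mice was 0.349 with limma-voom, 0.002 with the replicate block, 0.321 without the muscle-rich library (SAT Azin2-/- replicate 2) and 0.03 without GAT Azin2-/- replicate 1. The other fits with 1 library left out kept its negative sign. Mitf between depots of wild-type mice was 0.128 with limma-voom, 0.027 without the muscle-rich library (SAT wild-type replicate 3) and 0.004 without GAT wild-type replicate 3. Its sign stayed negative in the other fits with 1 library left out. Atp6v0d1 between depots of Azin2-/- mice was -0.021 without the muscle-rich library. The difference between depots was, for Atp6v0d1, -0.079 with limma-voom, -0.116 without the muscle-rich libraries and -0.126, -0.037, -0.016, -0.005, -0.004 and -0.001 with 1 library left out. For Lamp1 it was -0.01 and -0.032 and for Ctsd -0.082 and -0.025 in the same settings. Leaving out 1 library turned Tfeb to -0.023 for diet without low-fat replicate 1 and to -0.01 for genotype in SAT.

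Whether replicate numbers or marks in the titles pair libraries is not stated, and correlations of the deviations of same-marked libraries did not settle it. They were 0.213, -0.155 and 0.057 for diet, 0.787 and 0.428 for genotype in SAT, 0.019, -0.173 and -0.115 for genotype in GAT, 0.337 (a pair sharing an ID-like number), -0.042 and -0.019 for depot in wild-type, and -0.099 and 0.029 for depot in Azin2-/-. The 0.787 belongs to the 2 muscle-rich libraries. The replicate block gave 19 calls in GAT, 0 in SAT, 30 for diet without low-fat replicate 1, 17 for depot in Azin2-/- and 0 for the difference between depots. Depth was lowest for Atp6v0d2, with 31, 37 and 73 read counts in low-fat replicates 3, 5 and 6.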
